A study of Mus musculus with 18 samples.

Results

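The comparison described here sets LPS-treated macrophages that lack miR-146a against LPS-treated macrophages that carry a miR-146a with an altered 3′ portion. Its members are 6 of the 18 RNA libraries of the study, chosen by genotype and treatment alone: KO replicates 1 to 3 and 3′F replicates 1 to 3, all after LPS. The cells were bone marrow-derived macrophages (BMDMs), grown from the marrow of mice of 6 to 7 months for 8 to 9 days with M-CSF, the growth factor that turns marrow precursors into macrophages, at 10 ng/ml, and then given 1 ng/ml LPS for 16 h. KO mice are homozygous for a null allele of mir-146a, and 3′F mice are homozygous for an allele whose seed is intact and whose 3′ portion was exchanged for other bases. All mice were on a mixed 129/B6 background. Both alleles were made in V6.5 embryonic stem cells, each line was backcrossed to C57BL6/J 3 times on its own, and the colonies were kept apart, so in KO against 3′F the allele and the genetic background of the line cannot be told apart. WT and resting libraries, also 3 in each group, serve here as side values and share the filter, scaling and estimate of the spread.

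miR-146a is a microRNA whose transcription is switched on by NF-kB after Toll-like receptors sense bacterial products. It is known for damping the same pathway, through matches in the 3′ UTRs of Irak1 and Traf6, which carry the signal from the receptor to NF-kB. Animal microRNAs find most targets through the seed, while pairing through the 3′ portion adds to some of them, so a comparison of a null with a seed-intact allele asks what the seed and the remaining sequence still do in these cells.

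The sequences show what was kept and what was changed, with the seed in capitals (bases 2 to 8 from the 5′ end). The mature miRNAs are from RefSeq on GRCm38.p6, where miR-146a-5p lies at chr11:43374435-43374456 on the minus strand and its paralog miR-146b-5p, with the same seed, at chr19:46342790-46342811 on the plus strand. The mimics are the synthetic strands that the study designed for the WT and 3′F microRNAs. In the last line capitals mark instead the 8 of 20 positions, all from 13 to 20, at which the 3′F mimic differs from the WT mimic.
mmu-miR-146a-5p: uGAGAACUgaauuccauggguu
mmu-miR-146b-5p: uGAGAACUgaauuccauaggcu
mimic WT: uGAGAACUgaauuccauggg
mimic 3F: uGAGAACUgaauaagugucc
mimic 3F changed bases: ugagaacugaauAAGUGUCC

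The 8mer matches to this seed in the 3′ UTRs of Irak1 and Traf6 are shown because both genes are measured below. Each stretch ends in the match, in capitals, and is read on the strand of the gene. In the mm10 build the printed Irak1 stretches lie at chrX:74015393-74015414 and chrX:74015377-74015398 on the minus strand, and those of the first and the last of the 4 Traf6 matches at chr2:101697945-101697966 and chr2:101701345-101701366 on the plus strand.
Irak1 site 1: gactcagaggtcaaAGTTCTCA
Irak1 site 2: ttctcatgcttggaAGTTCTCA
Traf6 site 1: ccgctctggtgttgAGTTCTCA
Traf6 site 4: gactttgctactgcAGTTCTCA

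The deposited counts cover 21734 protein-coding genes, so miR-146a itself was not analysed here and the alleles were not checked in these counts. The 6 libraries held 7995881 to 19818043 counts, with 3′F replicate 3 the shallowest and 3′F replicate 2 the deepest. On a principal component analysis of these 6 libraries, the first component held 54.5% of the variance and separated KO, at 20.7 to 33.9, from 3′F, at −33.2 to −17.3. Replicates of a group differed by more than sampling noise in each pair (chi-square over its degrees of freedom 8.59 to 18.8). Levels are CPM, that is counts scaled to TMM-adjusted library size, and errors of levels are SD over 3 libraries. Resting KO replicate 3 and resting 3′F replicate 3 stood apart from their groups, and all 18 libraries share 1 estimate of the spread, so these enter the tests below through that estimate.

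After LPS, 13 of 40 DNA replication genes were called lower in KO than in 3′F macrophages at an adjusted p under 0.05. Of 52 mitosis genes 10 were called lower, and none of either list was called higher. With 1 library left out, these counts ran from 5 to 13 for replication and from 0 to 27 for mitosis. Single genes lower in KO included Vim, Lmna, Mmp12 and Plau, and single genes higher in KO included Nfkb1, Tnip1, Il1a, Itgax, Itgad and Timd4. Of 11357 genes tested by edgeR's quasi-likelihood test, 441 (3.88%) were called at a Benjamini-Hochberg adjusted p under 0.05, 172 of them higher in KO (1.51%) and 269 lower (2.37%). At an unadjusted p under 0.05 there were 1921 genes (16.9%), where 568 would be expected with no difference. The median size of a called difference was 1.00 on the log2 scale, and 222 called genes differed by at least 2-fold, 71 higher and 151 lower. Among all tested genes 34.3% had no overlap between the 3 KO and the 3 3′F libraries, and among the called genes 438 of 441 had none. The count differed between fits. A fit of the 6 libraries alone, with its own filter and scaling, called 1661 of 10916 genes (15.2%), with 831 higher (7.61%) and 830 lower (7.60%). DESeq2 on all 18 libraries called 801 (7.05%), 494 of them lower (4.35%), and limma-voom with quality weights 1842 (16.2%), 937 of them higher (8.25%). The fit of 18 libraries called 178, 142 and 270 without KO replicates 1, 2 and 3 in turn, and 164, 311 and 154 without 3′F replicates 1, 2 and 3. Of the 101 called genes named here, 41 stayed called in all 6 of these fits and 16 in none. Scaling by library totals in place of TMM moved the median of all genes from 0.01 to −0.12 and the split to 102 higher and 402 lower.

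**Figure D1:**
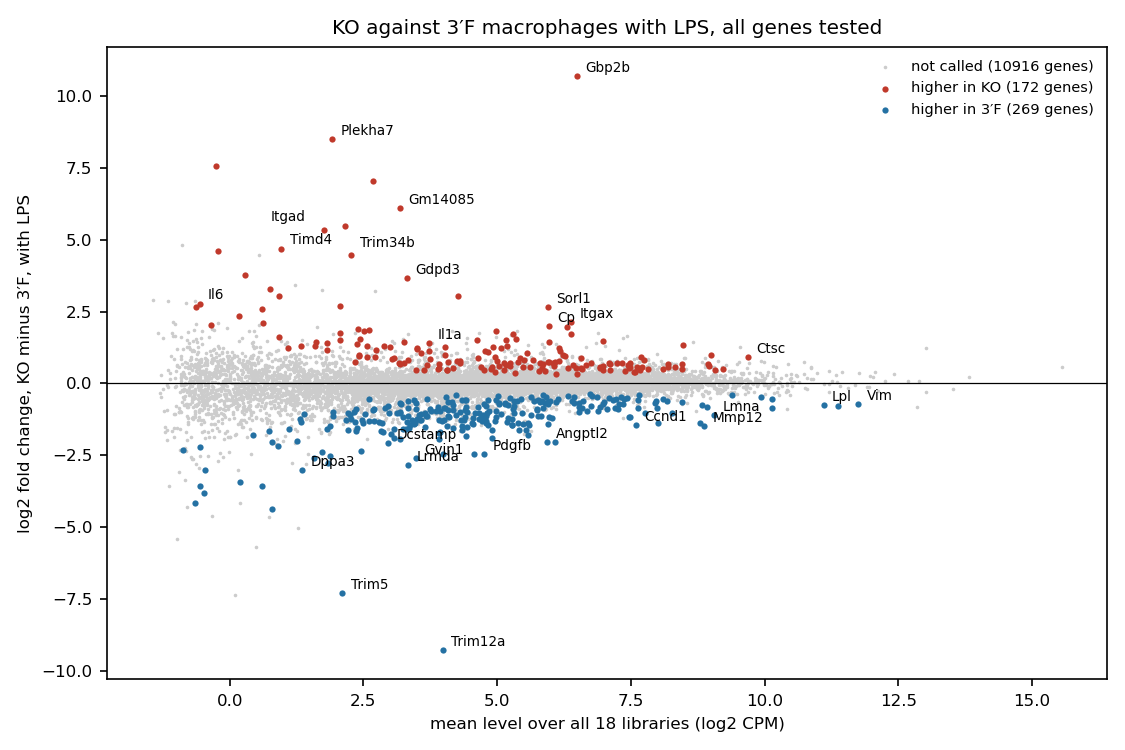
Each point is 1 of the 11357 genes tested, by its mean level over all 18 libraries (x axis, log2 CPM) and its log2 fold change of KO minus 3′F with LPS (y axis). The 172 called genes higher in KO (red) and the 269 higher in 3′F (blue) lie on both sides over the whole range of levels, with Gbp2b, Plekha7 and Gm14085 at the top and Trim12a and Trim5 at the bottom.

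A small number of genes were close to on in one group and off in the other. Plekha7, which codes for a protein of epithelial adherens junctions, had 13.3, 13.5 and 11.1 CPM in the KO libraries and 0.0733, 0 and 0 in the 3′F libraries. All 3′F libraries were at or under 3 counts, taken as the floor, so Plekha7 was at least 49.4-fold higher in KO (adjusted p 1.17e-07). Gm14085, a predicted gene, had 37.7, 39.5 and 38.1 CPM in KO against 0.366, 0.767 and 0.385 in 3′F, which is 75.9-fold (adjusted p 8.53e-05). These KO libraries lay within a narrow band, far from every 3′F library. Itgad, an integrin alpha chain of the leukocyte family, had 10.1, 12.4 and 11.9 CPM in KO and 0.22, 0.383 and 0.128 in 3′F (47.0-fold, adjusted p 2.00e-05). Gdpd3, a phosphodiesterase of lysophospholipids, had 19.2, 22.1 and 20.8 CPM in KO and 1.69, 1.48 and 1.8 in 3′F, a 12.5-fold difference with an adjusted p of 4.73e-07. Among genes with an average log2 CPM of at least 1, Gprc5b (8.34-fold), Dgat2, which makes triglycerides (6.54-fold), Sorl1, a sorting receptor (6.33-fold), Itgax (4.44-fold), Cp, the copper-carrying ferroxidase ceruloplasmin (4.02-fold), and Ppp2r1b, a scaffold subunit of protein phosphatase 2A (3.86-fold), followed. Sorl1 stood at 213 ± 36.2 CPM in KO and 33.6 ± 6.78 in 3′F, and Itgax, the integrin chain CD11c, at 204 ± 35.2 and 46.0 ± 9.24 (SD, n = 3).

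The largest differences in the other direction were in a Trim gene cluster. Trim12a had 0.0689, 0 and 0.0713 CPM in KO and 32.8, 38.5 and 35.1 in 3′F, a level lower in KO by at least 167-fold (adjusted p 2.57e-09). Trim5, which codes for a restriction factor of retroviral capsids, had 0, 0.0724 and 0.0713 CPM in KO and 9.75, 8.44 and 8.59 in 3′F, or at least 42.0-fold less (adjusted p 7.30e-08). Their neighbours moved in opposite directions: Trim34a was lower in KO, at 15.9 ± 1.06 against 58.6 ± 6.30 CPM, and Trim34b was higher, at 16.9 ± 2.68 against 0.775 ± 0.357 CPM (SD, n = 3). These are all 4 genes tested in chr7:104244457-104336909 of mm10. They are close paralogs, and only reads with a mapping quality of at least 50 were counted. Whether reads were lost or placed on the wrong copy was not tested, so the split of counts between copies is uncertain. Of the 12 tested genes of the Trim5, Trim12, Trim30 and Trim34 group listed here, 2 were called higher, Trim34b and Trim68 (log2 0.74), and 3 lower. Among all genes 1.51% were called higher and 2.37% lower. Trim68 lost the call in 5 of the 6 fits that leave out a library (adjusted p up to 0.130) and under scaling by library totals (0.0652).

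Other genes lower in KO were named by the same rule. Pdgfb, a growth factor for mesenchymal cells, had 4.55, 5.79 and 5.99 CPM in KO and 37.5, 21.7 and 30.5 in 3′F, a 5.50-fold difference (adjusted p 0.00102). Cd276, a checkpoint ligand of the B7 family (5.69-fold), Lama3, a laminin chain (5.62-fold), and Fgf13, a fibroblast growth factor homolog that stays in the cell (5.34-fold), were also lower. Dppa3, a factor best known from germ cells and early embryos, stood at 0.309 ± 0.230 CPM in KO and 2.52 ± 0.242 in 3′F (SD, n = 3). Bace1, the beta-secretase, was 6.09-fold lower, Cables1, a partner of cyclin-dependent kinases, 7.44-fold, and Lrrc27 5.58-fold. Lrmda, a gene linked to melanocyte differentiation, had 2.07, 1.74 and 2.43 CPM in KO against 7.77, 17.5 and 20.1 in 3′F, so its 3′F libraries were spread more widely than the KO ones. Gvin1, a very large interferon-inducible GTPase, was 6.08-fold lower in KO (2.96, 4.34 and 4.56 CPM against 26.7, 26.7 and 18.7 CPM in 3′F), but its call was lost in each of the 6 fits that leave out a library, with adjusted p from 0.0688 to 0.126. Bace1, Cables1, Cd276 and Lrrc27 also lost the call in 1 to 5 of the 6, with adjusted p up to 0.0674, 0.191, 0.0821 and 0.106.

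In some called genes the KO libraries did not move together. Gbp2b, a guanylate-binding GTPase that coats intracellular microbes, had 0.758, 659 and 540 CPM in the KO libraries and 0.44, 0.0548 and 0.257 in 3′F. KO replicate 1 thus lay near the 3′F level while replicates 2 and 3 lay far above it. Resting KO replicate 1 was also low, at 0.742 CPM, against 24.2 and 386 in resting KO replicates 2 and 3. Elavl4, a neuronal RNA-binding protein, had the same order, with 0.551, 31.4 and 26.6 CPM in KO and 0.293 to 0.641 in 3′F. Psip1, a chromatin reader, had 18, 57.9 and 60.5 CPM in KO and 17.3 to 20.1 in 3′F, and Chil1, a chitinase-like protein, had 0.207, 1.09 and 103 CPM in KO and 0.110 to 0.440 in 3′F. Elavl4, Psip1 and Chil1 are the 3 called genes whose groups overlap, and Elavl4 and Psip1 are named because of that, after their values were seen. Their adjusted p were 0.0222 for Gbp2b, 0.0361 for Elavl4, 0.0225 for Psip1 and 0.0374 for Chil1, and with quality weights for libraries in limma-voom none of these was called (0.598, 0.310, 0.0881 and 0.431). Ltf, given below with the granulocyte markers, was also lowest in KO replicate 1. Without KO replicate 3 the log2 difference of Chil1 fell from 7.04 to 1.28 (adjusted p 0.725).

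**Figure D2:**
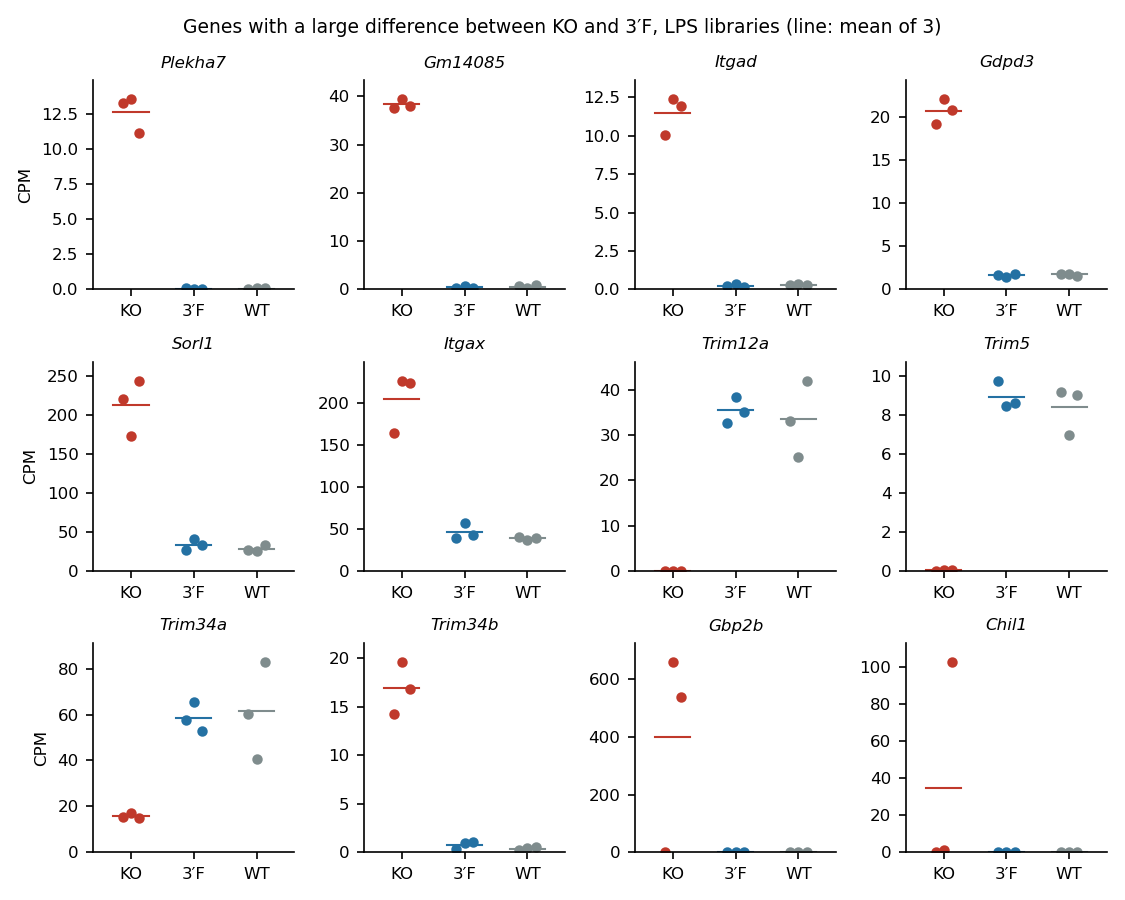
CPM in each LPS library (points) with the mean of 3 (line) for KO, 3′F and, as a side value, WT, for 12 genes, each on its own axis from 0. For 10 genes the KO libraries lie together and apart from 3′F, whereas for Gbp2b KO replicate 1 (0.758 CPM) and for Chil1 KO replicates 1 and 2 (0.207 and 1.09 CPM) lie near 0.

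Irak1 and Traf6, the adaptors with the seed matches shown above, were not called. Irak1 had 56.4, 65.9 and 54.9 CPM in KO and 59.6, 65.1 and 53.6 in 3′F, with a log2 difference of −0.01 ± 0.18 (SE) and an adjusted p of 0.989. Traf6 had 54.0, 59.6 and 54.8 CPM in KO and 62.7, 61.8 and 52.3 in 3′F (−0.07 ± 0.16, adjusted p 0.884). Their libraries overlap throughout, though differences of the size of the standard errors would not be detectable here. Of the 28 TLR4 signalling genes tested, 1 was called, Irak4, the kinase that acts just upstream of Irak1, higher in KO by 0.71 ± 0.19 (adjusted p 0.0489). Among all genes 3.88% were called, near the share of this list. The median over the 28 genes was 0.12, beside 0.01 for all genes. In the fit of the 6 libraries alone 6 of 27 were called higher and 1 lower, beside 7.61% and 7.60% of all genes there. Scaled by library totals, the TLR4 median was −0.01 and that of all genes −0.12. Of 13 genes named in the literature as miR-146a targets, 1 was called, the death receptor Fas, at 51.7 ± 2.90 CPM in KO and 37.3 ± 1.95 in 3′F (log2 0.47 ± 0.12, adjusted p 0.0428). Irak4 and Fas were not called when scaled by library totals, with adjusted p of 0.0834 and 0.151, and with 1 library left out Irak4 lost the call in 5 and Fas in all of the 6 fits.

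A few genes close to NF-kB itself were called higher in KO, beside 1.51% of all genes called higher and 2.37% lower. Nfkb1, which codes for the p105 and p50 subunit, had 258, 343 and 265 CPM in KO and 202, 202 and 178 in 3′F, a log2 difference of 0.57 ± 0.11 (adjusted p 0.00894). It was the 1 called member of the 11 tested NF-kB and IkB genes, whose median was 0.25. Among 18 feedback inhibitors, Tnip1, the partner of A20, was higher by 0.62 ± 0.11 (adjusted p 0.00615) and N4bp1, an inhibitor of NF-kB activation, by 0.66 ± 0.16 (adjusted p 0.0319). Dusp4, a phosphatase of MAP kinases, went the other way, at 26.8 ± 1.40 CPM in KO and 61.5 ± 9.55 in 3′F (SD, n = 3, adjusted p 0.000943). Chosen after their values were seen, Birc3, an inhibitor of apoptosis (1.44-fold), Tank, a TRAF partner (1.40-fold), Cebpb, a transcription factor of inflammatory genes (1.64-fold), and Nod1, a sensor of bacterial peptidoglycan (2.88-fold), were also called higher in KO. With 1 library left out Dusp4 and Tnip1 stayed called in all 6 fits, Nfkb1 lost the call in 2 (adjusted p up to 0.0602, without 3′F replicate 3), Nod1 in 3, Cebpb in 4, Birc3 and N4bp1 in 5, and Tank in all 6. Birc3 and Tank were also not called under scaling by library totals (adjusted p 0.116 and 0.0733).

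Of the cytokine genes, Il6 and Il1a were called higher in KO, and Il1b and Tnf were not called. Il6 had 3.24, 0.941 and 1.93 CPM in KO and 0.513, 0.0548 and 0.385 in 3′F. All KO libraries were above all 3′F libraries and the log2 difference was 2.78 ± 0.71 (adjusted p 0.0389), but the level was low and the call was lost whichever of the 6 libraries was left out (adjusted p 0.0520 to 0.178). Il1a had 49.6, 49.7 and 35.9 CPM in KO and 26.4, 12.8 and 12.2 in 3′F (1.39 ± 0.34, adjusted p 0.0316, and 0.0204 to 0.156 with 1 library left out). Il1b also had no overlap, at 458, 562 and 332 CPM in KO and 187, 108 and 102 in 3′F, but with an adjusted p of 0.159 it was not called. It was called by the fits of the 6 libraries alone (0.00173), of the LPS libraries alone (0.0105) and without the 2 resting libraries that stand apart (0.0145), and by limma-voom with quality weights (0.00156). Tnf had 185, 270 and 169 CPM in KO and 233, 178 and 138 in 3′F, so its groups overlapped (log2 0.18 ± 0.20, adjusted p 0.735), and its sign turned to −0.05 without KO replicate 2. Thus 1 of 13 IL-1 family genes and 1 of 7 genes of the IL-6, IL-10 and IL-12 families were called. None of 8 TNF superfamily ligands was called, where 1 passed an unadjusted p under 0.05 and DESeq2 called 0. Of all genes 3.88% were called and 16.9% had an unadjusted p under 0.05. Among chemokines, the test called 0 of 12 CC and 0 of 10 CXC genes (4 and 1 had an unadjusted p under 0.05), and DESeq2 called 1 CC gene lower. Ccl9 stood at 1257 ± 453 CPM in KO and 2327 ± 232 in 3′F (adjusted p 0.0670), Ccl6 at 261 ± 136 and 428 ± 89.2, and Cxcl10 at 529 ± 142 and 170 ± 24 (adjusted p 0.317). Ccl5 (232 ± 81.3 and 217 ± 26.6 CPM), Cxcl16 (541 ± 47.6 and 515 ± 30.3) and Pf4 (351 ± 48.6 and 398 ± 22.9) overlapped between the groups, and the signs of Ccl5 and Cxcl16 turned under scaling by library totals.

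**Figure D3:**
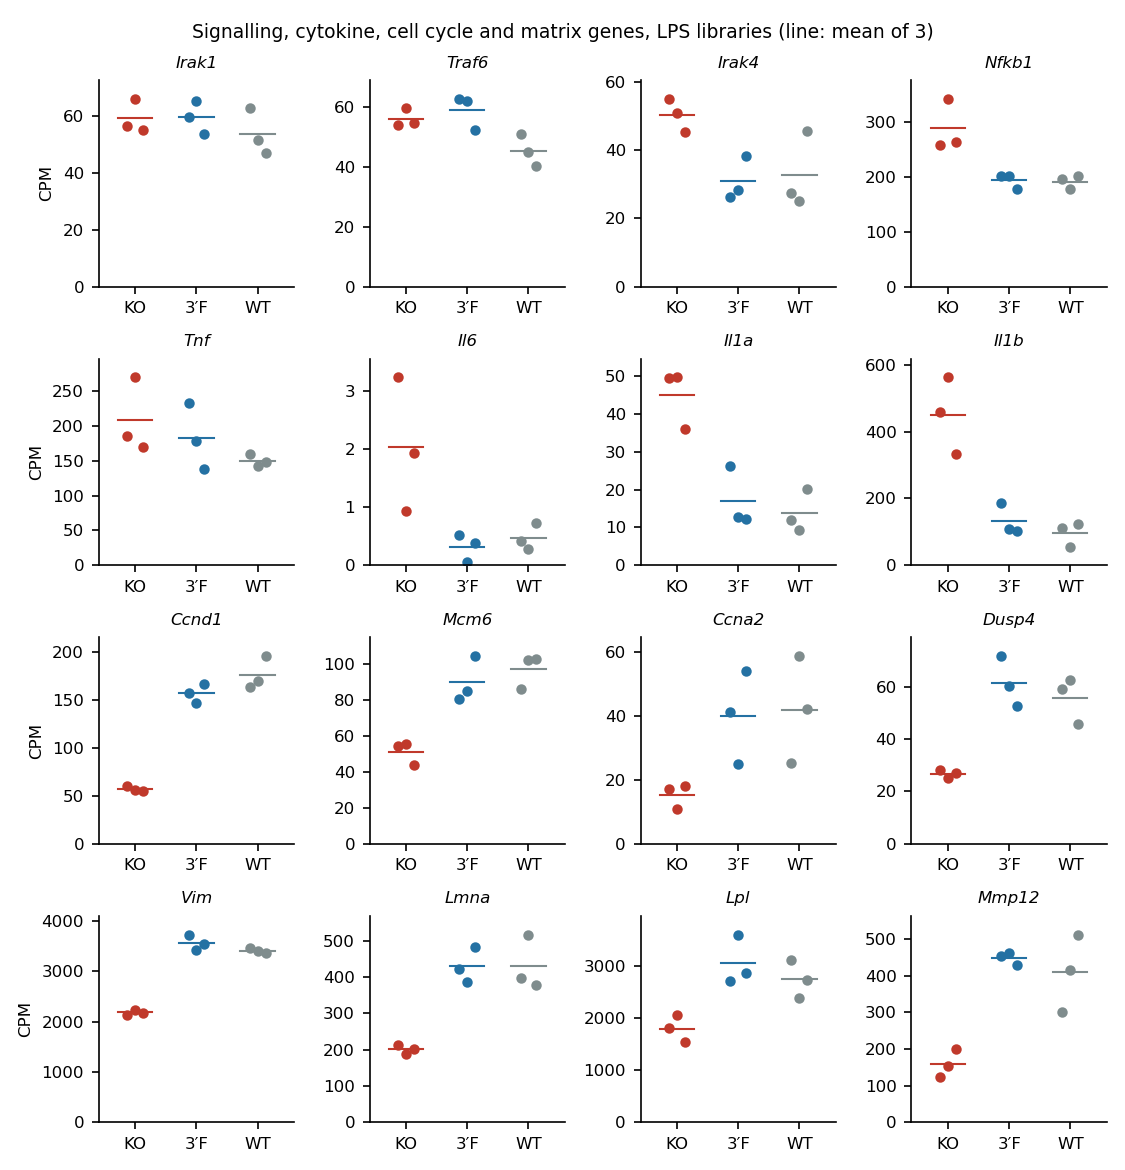
CPM in each LPS library (points) with the mean of 3 (line) for KO, 3′F and WT, for 16 signalling, cytokine, cell cycle and matrix genes, each on its own axis from 0. Irak1, Traf6 and Tnf overlap between KO and 3′F, while the KO libraries lie above every 3′F library for Irak4, Nfkb1, Il6, Il1a and Il1b and below every 3′F library in the panels from Ccnd1 to Mmp12.

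Interferon-stimulated genes were high in both groups, and in most of them every KO library stood above every 3′F library, but the number that passed the test differed between fits. Of 41 such genes, 34 had all KO libraries above all 3′F libraries, beside 19.4% of all genes, and the median difference was 0.64. None was called in the fit of 18 libraries, 1 passed an unadjusted p under 0.05, DESeq2 called 0 and limma-voom with quality weights 4. In the fit of the 6 libraries alone 31 of 41 were called higher and none lower, beside 7.61% of all genes called higher there. Ifit2, an RNA-binding antiviral effector, had 3241, 4041 and 3463 CPM in KO and 2345, 2504 and 1615 in 3′F, and WT libraries ran from 876 to 6351. Rsad2, which codes for the antiviral enzyme viperin, stood at 2149 ± 514 CPM in KO and 1239 ± 309 in 3′F, and Slfn5 at 2492 ± 166 and 1663 ± 306 (SD, n = 3). The summed level of the 41 genes was 20898 to 27203 CPM in KO, 11871 to 16596 in 3′F and 7430 to 28124 in WT, so the WT libraries alone spanned both groups.

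Interferons also induce GTPases and antigen presentation genes. Of 9 guanylate-binding proteins 8 had no overlap and 1, Gbp2b, was called, beside 1.51% of all genes called higher. Of 10 immunity-related GTPases 8 had no overlap and none was called (0 at an unadjusted p under 0.05). In those without overlap all KO libraries lay above all 3′F libraries, which held for 19.4% of all genes tested. In the fit of the 6 libraries alone 8 of 8 and 7 of 10 were called higher, beside 7.61% of all genes there, and Gbp2b was not tested there. Irgm1 stood at 474 ± 47.3 CPM in KO and 322 ± 54.9 in 3′F, Igtp at 259 ± 64.7 and 107 ± 16.1, and Ifi47 at 486 ± 98.2 and 280 ± 63.8 (SD, n = 3). For MHC class I presentation, 16 of 18 genes had all KO libraries above all 3′F libraries, the median difference was 0.51, none was called (4 at an unadjusted p under 0.05, 1 by DESeq2), and the fit of 6 libraries called 14. For MHC class II presentation, 2 of 10 genes had all KO libraries above all 3′F libraries, which is near the share of all genes. The class II median was 0.10, none was called (2 at an unadjusted p under 0.05, 1 by DESeq2), and the fit of 6 libraries called 2. H2-D1 and H2-K1, the classical class I chains, stood at 2663 ± 205 and 1941 ± 141 CPM in KO and 1830 ± 253 and 1274 ± 176 in 3′F, and B2m, their shared light chain, at 1760 ± 37.8 and 1321 ± 67.1. Of 17 interferon signalling genes the test called 0, DESeq2 0, and 2 had an unadjusted p under 0.05.

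By number of calls, DNA replication and mitosis led the lists counted here, with every call lower in KO. By share of members called, some shorter lists stood above mitosis. Among these were the Trim list (2 higher and 3 lower of 12) and the scavenger receptors (3 higher and 2 lower of 19). Of 40 DNA replication genes 13 were called lower and none higher, beside 2.37% of all genes called lower, and their median difference was −0.55. Mcm6, a subunit of the replicative helicase, had 54.3, 55.6 and 43.9 CPM in KO and 80.4, 84.8 and 105 in 3′F, a log2 difference of −0.81 ± 0.12 (adjusted p 0.00116). Its groups did not overlap. Mcm7 and Mcm2, subunits of the same helicase, were 2.20-fold lower each, Pold1, a DNA polymerase subunit, 1.95-fold, Chaf1b, which deposits histones on new DNA, 1.86-fold, and Uhrf1, which maintains DNA methylation, 2.78-fold. Brca1, a repair gene chosen after its values were seen, was 2.52-fold lower. Without KO replicate 2, Chaf1b and Brca1 were not called (adjusted p 0.0601 and 0.0636). When 1 of the 6 libraries was left out, 5 to 13 replication genes were called lower and none higher.

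Of 52 mitosis and cytokinesis genes 10 were called lower and none higher, beside 2.37% of all genes called lower. All 52 had a negative difference, with a median of −1.10, while 5382 of all 11357 genes tested had a negative one. Cenpa, the centromeric histone, had 9.23, 7.46 and 7.49 CPM in KO and 20.7, 14.4 and 24.8 in 3′F. The cyclins Ccnb2 and Ccna2 stood at 13.3 ± 2.95 and 15.4 ± 3.97 CPM in KO and at 33.2 ± 10.9 and 40.1 ± 14.7 in 3′F (SD, n = 3). Cdc25b, an activating phosphatase of mitotic kinases, was 2.02-fold lower, Kif11, a spindle motor, 2.61-fold, and Bub1, a checkpoint kinase, 2.73-fold. 3′F replicate 2 was the lowest 3′F library in each of these 6 genes. The call count hung on single libraries: without KO replicates 1 to 3 in turn it was 3, 0 and 1, without 3′F replicates 1 and 3 it was 0 and 0, and without 3′F replicate 2 it was 27. The fit of the 6 libraries alone called 36 lower and DESeq2 31, beside 7.60% and 4.35% of all genes called lower there. Of 28 cyclins, cyclin-dependent kinase inhibitors and E2F factors 3 were called lower, and Ccnd1 was the firmest of them, at 60.1, 56.4 and 55.3 CPM in KO and 158, 147 and 167 in 3′F (log2 −1.46 ± 0.16, adjusted p 8.53e-05). E2f2 (3.00-fold) and Ccne2 (2.49-fold) were the others, of which Ccne2 lost the call in 5 of the 6 fits. Among 57 replication-dependent histone genes Hist2h2be was called lower (1.86-fold) and the median was −0.62. The libraries were made from RNA depleted of ribosomal RNA, which keeps histone transcripts without a poly(A) tail.

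**Figure D4:**
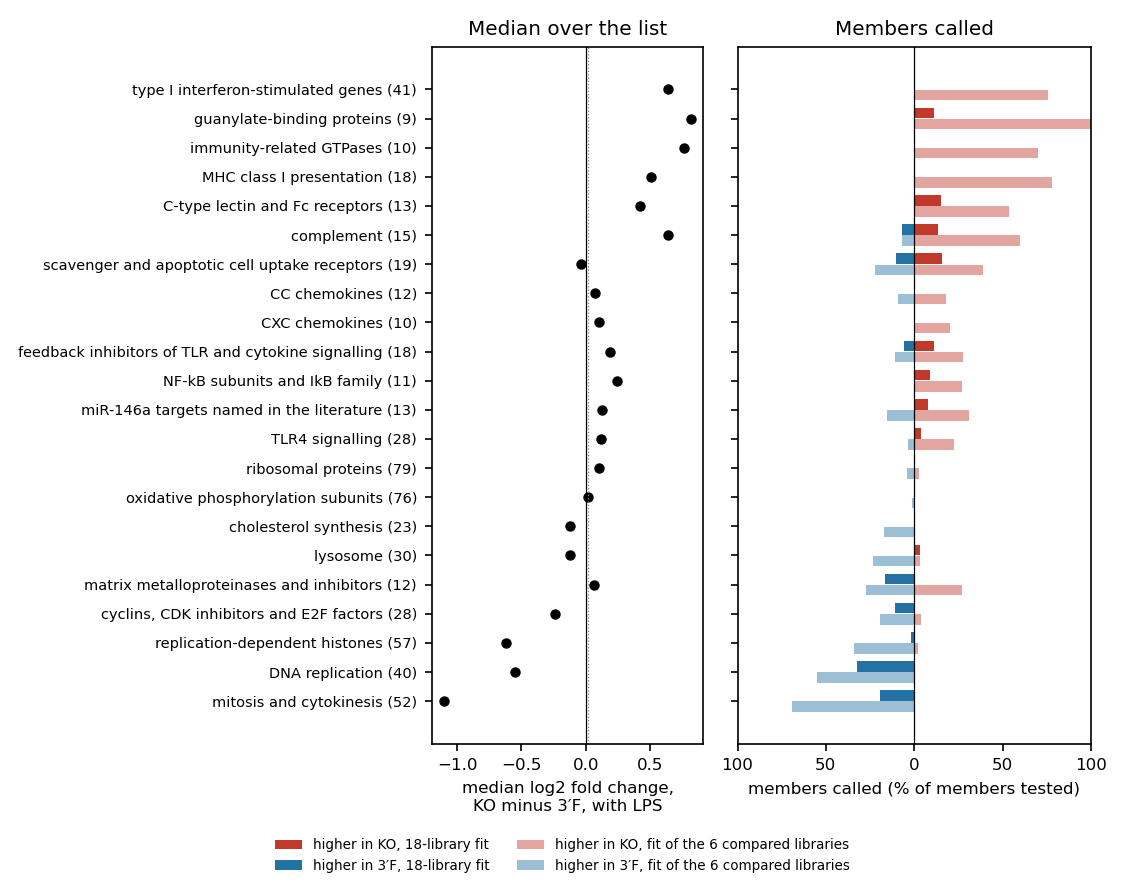
For 22 gene lists (number of genes tested in parentheses), the median log2 fold change of KO minus 3′F with LPS (left, points, with a dotted line at the median of all genes) and the percent of members called higher in KO (red) or in 3′F (blue) in the fit of 18 libraries (dark) and of the 6 compared libraries (light, of those tested there). Mitosis (median −1.10) and DNA replication (−0.55) have dark and light bars on the 3′F side, while interferon-stimulated genes (0.64) have light bars only.

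The 6 most abundant called genes lower in KO were Vim, Lpl, Lgals3, Adam8, Osbpl8 and Anxa1, of which Lpl is described below with the metabolic lists. Vim, the intermediate filament vimentin, had 2144, 2237 and 2179 CPM in KO and 3732, 3432 and 3550 in 3′F, a log2 difference of −0.71 ± 0.13 (adjusted p 0.00552) that stayed called whichever library was left out. Lmna, the nuclear lamin A and C gene, was 2.14-fold lower (201 ± 13.3 against 430 ± 48.9 CPM, SD, n = 3), Lgals3, a galactose-binding lectin of macrophages, 1.72-fold, and Adam8, a membrane metalloprotease, 1.79-fold. Anxa1, an annexin that limits inflammation, was 1.37-fold lower and Osbpl8, a lipid transfer protein, 1.45-fold. Of 12 matrix metalloproteinases and inhibitors 2 were called, both lower, beside 2.37% of all genes called lower. These were Adam8 and Mmp12, the macrophage elastase. Mmp12 had 124, 154 and 201 CPM in KO and 453, 462 and 430 in 3′F (2.81-fold, adjusted p 0.00650). Plau and Plaur, the urokinase enzyme and its receptor, chosen after their values were seen, were 2.57- and 2.22-fold lower. Angptl2, an angiopoietin-like secreted protein, was 4.12-fold lower (adjusted p 0.000149). Among these, Anxa1 lost the call in all 6 fits with a library left out, Osbpl8 in 5 and Lgals3 in 1 (adjusted p 0.0535 without 3′F replicate 1).

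The 6 most abundant called genes higher in KO were Ctsc, Pla2g7, Tnfaip2, Itga4, Ncf1 and Clec12a. Ctsc, the lysosomal protease that activates granule serine proteases, had 1856, 2258 and 1792 CPM in KO and 947, 1181 and 988 in 3′F (log2 0.92 ± 0.22, adjusted p 0.0281). It was the 1 called member of 30 lysosome genes, a share near the 3.88% called of all genes. Pla2g7, which breaks down platelet-activating factor, was 2.01-fold higher, Tnfaip2, a TNF-induced gene, 1.59-fold, Itga4, the integrin alpha 4 chain, 1.54-fold, Ncf1, a subunit of the phagocyte NADPH oxidase, 1.37-fold, and Clec12a, an inhibitory lectin receptor, 1.43-fold. Anxa6, a membrane-binding annexin chosen after its values were seen, had 716, 698 and 664 CPM in KO and 299, 261 and 255 in 3′F (adjusted p 2.83e-05). The calls of Clec12a, Tnfaip2, Itga4 and Ncf1 were lost under scaling by library totals (adjusted p 0.0629, 0.119, 0.105 and 0.104), and with 1 library left out every one of the abundant genes higher in KO named here except Anxa6 lost the call in 4 to 6 of the 6 fits.

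Receptors for uptake and recognition were split. Of 19 scavenger and apoptotic cell uptake receptors 3 were called higher and 2 lower, beside 1.51% and 2.37% of all genes. The other counts in this paragraph stand beside the same shares. Timd4, a phosphatidylserine receptor of resident macrophages, had 9.92, 7.53 and 5.99 CPM in KO and 0.147, 0.164 and 0.770 in 3′F (adjusted p 0.00568). Cd163, the haemoglobin-haptoglobin receptor, was 2.25-fold higher and Mertk, a kinase receptor for apoptotic cells, 1.93-fold. Mfge8, a bridge to apoptotic cells, was 2.04-fold lower in KO and Colec12, a scavenger collectin, 1.84-fold. Clec4a2, an inhibitory lectin receptor, was 1.46-fold higher and made 2 of 13 C-type lectin and Fc receptor genes with Clec12a. Among 15 complement genes, Itgax and C4b (4.47-fold, at 1.72 ± 0.482 against 0.384 ± 0.234 CPM) were higher and Itgam, the CD11b chain, lower (219 ± 4.27 against 332 ± 32.2 CPM, SD, n = 3). Havcr2, the checkpoint receptor TIM-3, was 2.75-fold lower, the 1 call among 11 costimulatory and checkpoint genes (adjusted p 6.97e-05). Havcr2, Timd4 and Itgax stayed called whichever library was left out, C4b and Itgam lost the call in all 6 fits, and Cd163, Mertk, Mfge8, Colec12 and Clec4a2 in 4 or 5.

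Metabolic lists held single calls, beside 3.88% of all genes called. Lpl, the lipoprotein lipase, was 1.70-fold lower in KO (1801 ± 258 against 3057 ± 476 CPM, adjusted p 0.0464), the 1 called of 12 LXR target genes, with an adjusted p up to 0.158 without KO replicate 3. Pparg, a regulator of lipid handling chosen after its values were seen, was 2.24-fold lower, and like Lpl lost the call with any 1 library left out. Pfkfb3, which drives glycolytic flux, was 1.69-fold higher, the 1 called of 23 glycolysis and hypoxia genes, and lost the call in 4 of the 6 fits with a library left out (adjusted p up to 0.109). Cp was the 1 called of 14 iron and heme genes. Of 9 arginine, nitric oxide and itaconate genes none was called (1 at an unadjusted p under 0.05, 0 by DESeq2), and Acod1, which makes itaconate, stood at 4609 ± 737 CPM in KO and 3123 ± 327 in 3′F. Saa3, an acute-phase protein and the most abundant of its list, had 23399, 30321 and 26838 CPM in KO and 10978, 12316 and 10819 in 3′F, with no overlap but an adjusted p of 0.416. The fits of the 6 libraries alone and of the LPS libraries alone called it (adjusted p 0.000160 and 0.00502).

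The housekeeping lists gave few or no calls. None of 79 ribosomal protein genes (median 0.11, 2 at an unadjusted p under 0.05, 1 by DESeq2), 76 oxidative phosphorylation genes (0.02, 1 and 0), 31 proteasome genes (0.10, 1 and 0) or 13 Argonaute and microRNA processing genes (−0.03, 3 and 0) was called. Ago2, the slicing Argonaute that carries microRNAs, stood at 75.2 ± 5.03 CPM in KO and 85.7 ± 2.83 in 3′F (adjusted p 0.721). Cholesterol synthesis (23 genes, median −0.12, 2 and 1) was likewise without a call.

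Side values from the WT libraries placed WT near 3′F. These libraries enter the KO to 3′F test through the shared filter, scaling and estimate of the spread. The WT mean lay nearer to the 3′F mean than to the KO mean for 436 of the 441 called genes. In 3′F against WT with LPS 1 of 11357 genes was called (0.00881%) and 106 (0.933%) had an unadjusted p under 0.05. With no difference 568 would be expected there, so the test was cautious in this contrast. Its few calls do not show that 3′F equals WT. In KO against WT 544 were called (4.79%). The 3 contrasts share libraries, so their overlap was not taken as a result. For DNA replication the median was −0.76 in KO against WT and −0.11 in 3′F against WT, and for mitosis −1.22 and −0.08. The difference of Il1a from WT was 1.71 on the log2 scale in KO and 0.32 in 3′F, and for Nfkb1 these differences were 0.59 and 0.02.

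The resting contrast shares no library with the LPS contrast, but the labels give 3 mice of each genotype, so resting and LPS libraries may come from the same mice. The fit treats all 18 as independent, in the interaction too. KO against 3′F at rest called 1464 genes (12.9%), 771 higher (6.79%) and 693 lower (6.10%), and the count was 735 without resting 3′F replicate 3, 918 without resting KO replicate 3 and 749 without both. Of the 441 genes called with LPS, 411 had the same sign at rest (164 of those higher and 247 of those lower). In each of the states 220 passed the test, with the direction shared by all 220. The share of all tested genes with the same sign in both states was not counted, so the 411 have no share to stand beside. Trim12a (log2 −9.29 with LPS, −10.33 at rest), Plekha7 (8.52 and 5.66) and Gdpd3 (3.66 and 3.59) differed in both. Vim (−0.71 and −0.25), Adam8 (−0.84 and −0.11), E2f2 (−1.56 and 0.10) and Clec12a (0.52 and 0.06) were called with LPS and not at rest. For lists the medians at rest were −0.55 for DNA replication, −1.38 for mitosis and 3.50 for interferon-stimulated genes, of which 36 of 41 were called higher at rest, against none with LPS. The interaction tested next called none of these 41 genes.

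**Figure D5:**
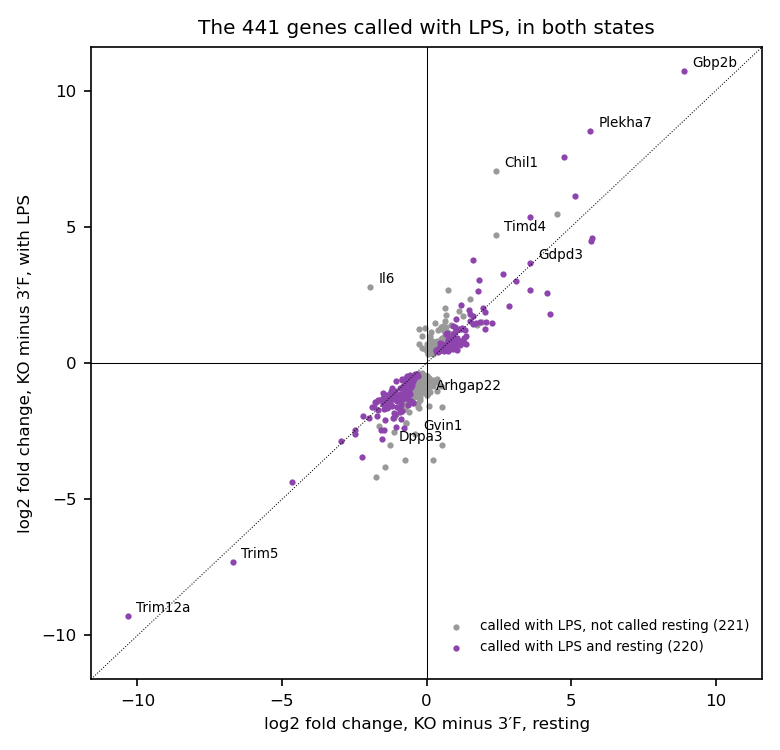
For the 441 genes called in KO against 3′F with LPS, the log2 fold change at rest (x axis) and with LPS (y axis), with a dotted line of equal values. The 220 genes also called at rest (purple) all lie in the quadrants of equal sign, and 30 of the 221 others (grey) lie in the quadrants of opposite sign, Il6 among them.

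Whether KO and 3′F responded to LPS by a different amount was tested by the interaction of genotype and treatment. It called 2 genes (0.0176%), Clmp and Arhgap22, while 1267 (11.2%) had an unadjusted p under 0.05, and DESeq2 called 27. Clmp, a cell adhesion molecule of tight junctions, rose from 13.1 ± 4.04 CPM at rest to 52.3 ± 6.41 with LPS in KO and from 2.24 ± 0.534 to 45.4 ± 3.08 in 3′F (SD, n = 3), so the KO response was smaller by 2.26 ± 0.28 on the log2 scale (adjusted p 0.00582). Its levels with LPS did not differ by the test (adjusted p 0.636). Arhgap22, which switches off the small GTPase Rac, fell from 52.9 ± 1.28 to 5.92 ± 0.748 CPM in KO and from 52.0 ± 3.67 to 13.3 ± 1.75 in 3′F, a difference of −1.18 ± 0.17 (adjusted p 0.0188). With LPS it was 2.25-fold lower in KO (adjusted p 9.01e-05).

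Genes with a match to the seed were set beside those without, using the longest annotated 3′ UTR and the letters AGTTCTCA for an 8mer, AGTTCTC or GTTCTCA for a 7mer and GTTCTC for a 6mer, read on the strand of the transcript, each gene being placed by its longest match. Of 520 tested genes with an 8mer, 4 were called higher (0.769%) and 11 lower (2.12%), and their median difference was 0.00. Of 1806 genes with a 7mer and no 8mer, 34 were called higher (1.88%) and 54 lower (2.99%), with a median of 0.01. The 7488 genes without a 6mer had 108 higher (1.44%) and 160 lower (2.14%) and a median of 0.02, but their 3′ UTRs are shorter, at a median of 792.5 bases against 2692.5 for 8mer genes. The called 8mer genes with the smallest p were Gm14085, higher, and Angptl2 (log2 −2.04), the thyroid hormone deiodinase Dio2 (−1.69), the protein deiminase Padi2 (−1.36), Ccp110 (−0.61) and Mxi1 (−0.60), lower in KO. Chosen after their values were seen, as further 8mer genes higher in KO, were Itga4 (0.62) and Mgat4a (0.64). Itga4 and Mgat4a lost the call with any 1 library left out.

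Large differences were frequent on chromosome 7 (positions in mm10). Of the 53 called genes that differ by at least 4-fold, 13 (24.5%) lie on chromosome 7, which holds 7.66% of the genes tested. Of these 13, 11 start above 99 Mb, a cut set by no rule. The share of all tested chromosome 7 genes that start above it was not counted. Runs of 3 or more called genes, neighbours within 1 Mb, numbered 25, and how many the share of called genes would give was not worked out. Those named here are among the densest. The runs went from 3 called of 37 tested genes to 4 of 4 and 3 of 3, and some mixed both directions. On chromosome 7 they include the Trim genes above and Itgam, Itgax, Itgad and 9130023H24Rik (log2 −0.60, 2.15, 5.35 and −0.59), 4 of 6 tested genes at chr7:128062640-128238031. On chromosome 9, Ppp2r1b (1.95), Sik2, a salt-inducible kinase (0.90), and Layn, a hyaluronan receptor (0.82), 3 of 3 tested genes at chr9:50845301-51077094, were all higher in KO, but Layn lost the call with any 1 library left out and Sik2 in 4 of the 6 fits. Within 2 Mb of mir-146a on chromosome 11, 7 genes were tested and 2 called, beside 3.88% of all genes. Ublcp1, a proteasome phosphatase, was lower (−0.66 ± 0.18, adjusted p 0.0488) and Rnf145, a ubiquitin ligase, higher (0.43 ± 0.11, adjusted p 0.0373). They lie at 1080 and 1144 kb, and with 1 library left out they lost the call in 6 and 5 of the 6 fits. The nearest tested neighbours, Pttg1 at 45.8 kb (−0.89, adjusted p 0.326) and Slu7 at 59.3 kb (0.05, adjusted p 0.845), and the more distant Pwwp2a, Ttc1 and the cytokine gene Il12b, were not called. Pttg1 had no overlap, at 14.7, 10.2 and 16.3 CPM in KO and 27.0, 22.3 and 27.1 in 3′F, and was called by the fits of the 6 libraries alone (0.00685), of the LPS libraries alone (0.0369) and without the 2 resting libraries (0.0101), and by limma-voom (0.00498).

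Markers of macrophages and of other cells that marrow cultures could hold were summed in each library. The 14 macrophage markers were all tested, and 1 was called higher (Mertk) and 1 lower (Itgam), beside 1.51% and 2.37% of all genes. Their median difference was 0.19, with 9 positive and 5 negative. Their summed level was 71737 to 88515 CPM in KO and 50970 to 60946 in 3′F, but much of that sum was Lyz2 alone. Lyz2, the top gene of each library, held 5.30 to 6.10% of counts in KO and 3.91 to 4.58% in 3′F. Of 10 T cell markers Cd3d, Cd3e, Cd3g, Cd8a and Thy1 were at 0 in all 6 libraries, and the sum, 70.4 to 86.7 CPM in KO and 180 to 211 in 3′F, was nearly all Il7r, the receptor for interleukin 7, which was 2.61-fold lower in KO (adjusted p 0.000257). Summed markers of B and plasma cells, NK cells, dendritic cells, mast cells and erythroid cells did not pass 1.61 CPM in any of the 6 libraries. Megakaryocyte markers summed to 1.79 to 4.14 CPM in KO and 0.641 to 1.26 in 3′F, and stromal and fibroblast markers to 4.35 to 5.29 and 3.08 to 4.33, with no overlap between the groups in either sum. None of the 2 tested markers of either list was called (1 of each at an unadjusted p under 0.05), and DESeq2 called 0 megakaryocyte and 1 stromal marker. The 13 neutrophil and granulocyte precursor markers summed to 62.6 to 97.5 CPM in KO and 43.7 to 55.3 in 3′F, and 1 of 8 tested was called, Ltf, the granule protein lactoferrin, at 0.551, 3.19 and 2.5 CPM in KO and 0.293 to 0.493 in 3′F (adjusted p 0.0479). Osteoclast markers summed to 234 to 327 CPM in KO and 257 to 339 in 3′F, with Dcstamp, which macrophages need in order to fuse, 4.37-fold lower in KO. Il7r stayed called whichever library was left out, while Ltf and Dcstamp lost the call in 5 and 4 of the 6 fits. The part of these markers in the differences above was not tested, and in bulk RNA fewer cells of a type and less RNA per cell cannot be told apart.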

How the data were processed

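RNA was sequenced from 18 BMDM cultures, 3 for each of 6 groups (WT, KO and 3′F, resting or with LPS). The labels give 3 mice of each genotype, so the 3 libraries of a group are taken as separate mice, while resting and LPS libraries of a genotype may share mice and are treated as independent. The authors depleted ribosomal RNA, made strand-specific libraries, trimmed reads with cutadapt 1.8.3, aligned them to mm10 with HISAT2 2.1.0 and counted those with a mapping quality of at least 50 on the Gencode M15 annotation with featureCounts 1.5.3. The deposited values are raw counts of reads per protein-coding gene. Reads carry no molecular identifiers, so the floor of 3 counts per library covers counting error only.

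Genes passing edgeR's filterByExpr over the 6 groups (11357 of 21734) were scaled by TMM and fitted with edgeR 4.0.16 (R 4.3.3), quasi-likelihood test, all 18 libraries, 1 coefficient per group; calls are at a Benjamini-Hochberg adjusted p under 0.05. The common biological coefficient of variation was 0.184. The standard error is the log2 difference over the root of the F statistic. Folds are ratios of mean CPM. Fits with DESeq2 1.42.0, limma 3.58.1 (voom with quality weights), other libraries, scalings and filters, and with a replicate block were the alternatives. The test was tried on simulated counts first. Positions and 3′ UTRs are from Gencode M21, which holds 21679 of the gene IDs (55 were not found). No sample column was left without a group.

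The text names genes by rule: the pathway genes of the study, the 12 most changed called genes in each direction whose KO and 3′F libraries do not overlap (mean log2 CPM 1 or more), the 6 most abundant called genes in each direction, up to 6 called members of each list by p (or up to 3 of the most abundant where none was called), genes called in the interaction, neighbours of mir-146a, called genes in runs, and up to 6 called genes with seed matches by p. Other genes are said to be chosen after their values were seen. Members and lists were chosen with earlier results of these data known. Some results are not reported here.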

Additional observations from a re-analysis of the deposited data

Results flagged for a closer look

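The difference between the KO and 3′F responses to LPS was called for 2 genes by edgeR's interaction test. For Clmp the difference was −2.26 ± 0.28 on the log2 scale (SE, adjusted p 0.00582). Its level rose 3.99-fold with LPS in KO and 20.3-fold in 3′F, with resting levels of 17.7, 11.2 and 10.3 CPM in KO and 2.65, 2.43 and 1.64 in 3′F, so every resting KO library lay above every resting 3′F library. For Arhgap22 the difference was −1.18 ± 0.17 (adjusted p 0.0188). Its level fell 8.93-fold with LPS in KO and 3.91-fold in 3′F from resting levels that overlapped, 51.8 to 54.3 CPM in KO and 48.0 to 55.3 in 3′F. Clmp was called in every alternative run, while Arhgap22 lost the call in 8 of the 12 fits that leave out a library, with an adjusted p up to 0.0897.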

How the results depend on the processing

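The direction of the 441 calls held wherever a gene was called again, but the number of calls differed between fits. The fit of the 6 libraries alone called 1661 (831 higher in KO, 830 lower), the 9 LPS libraries 1075 (430 and 645), and the fit without the 2 resting libraries that stand apart 1387 (624 and 763), with 749 at rest and 5 for the difference of responses. DESeq2 called 801 (307 and 494) and 27 for the difference of responses. limma-voom with quality weights called 1842 (937 and 905), 2916 at rest and 118 for the difference of responses. Scaling by library totals gave 102 higher, and no filter on low counts gave 4 genes for the difference of responses. Of the 441 genes, 427, 422, 441, 438, 435 and 370 were called by these first 5 fits and by library totals, all in the same direction. With 1 library left out, the calls ran from 142 to 311 (higher 42 to 99, lower 90 to 214), those at rest from 735 to 1811, and those for the difference of responses from 1 to 3. The cause of these shifts was not tested.

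Same-numbered KO and 3′F libraries with LPS deviated from their group means with correlations of −0.01, 0.21 and 0.11, so the numbers were not taken as pairs. With a replicate block the fit called 433 genes (163 higher, 270 lower), 1279 at rest and 2 for the difference of responses, and not every library correlated best with its own number. Resting and LPS libraries with the same genotype and number had correlations of 0.0283 to 0.318.

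Sign changes came only in genes that were not called. Ccl5 turned to −0.127 with limma-voom and −0.0497 with library totals, and ran from −0.0993 to 0.359 with a library left out. Cxcl16 (−0.0648) and Slu7 (−0.0771) turned with library totals. With a library left out Irak1 ran from −0.0965 to 0.0604, Pwwp2a from −0.121 to 0.109 and Tnf from −0.0470 to 0.393. The depth of the shallowest library, 7995881 counts, and 3 libraries a group limit what low genes such as Il6 can show.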
